A study of Macaca fascicularis with 6 samples.

Results

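The interferon response genes described here are 38 listed genes that interferons are known to switch on, or that carry their signal. Of these, 34 were present in at least 1 of the 6 gene tables and 33 passed the filter on low counts, among 12294 genes tested of 14623 in the tables. IFIT1, USP18, IFITM2 and IFITM3 appear in none of the tables used here, and HERC5, a ligase that attaches ISG15 to proteins, was present but too low to test. The members were listed by name, with earlier results of these data known. Their counts against all genes are therefore not an unbiased comparison.

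The cells came from the corneal epithelium of cynomolgus monkeys (Macaca fascicularis) with the genotype WT. The groups were uninjured corneas, corneas at day 1 after corneal injury and corneas at day 3 after corneal injury, with 2 samples each, and the labels give neither the kind of injury nor the age of the animals. Single cells were captured with 10x Genomics droplets, and HIT-scISOseq, which joins cDNA molecules for long-read sequencing, was run on their full-length cDNA. Whether samples of a group are separate animals is not in the labels; the p-values then reflect the spread of these libraries alone, which could be technical.

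Type I, type II and type III interferons bind separate receptors at the cell surface, which activate JAK kinases and STAT transcription factors. A complex that holds IRF9 and STAT2 binds the promoters of many of the genes listed here. The induced proteins sense or degrade viral RNA, block viral entry or release, tag other proteins, and raise the presentation of peptides on MHC class I. In the ocular surface epithelium these genes are best known from viral infection, and several are also expressed without infection.

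The 6 gene tables held 7895 cell barcodes, with 3733442 to 4928103 total counts per sample and a median of 2462 to 4447 counts per barcode. Corneal identity was checked with KRT12, KRT3, KRT5 and PAX6, all present in every group, whose summed level was 22264 to 27598 CPM over the samples. The sum does not show the course of each gene. Of these 4, 1 rose and 2 fell at day 1, and 1 rose and 3 fell at day 3 against uninjured (edgeR, adjusted p under 0.05). CPM are counts scaled to a fixed total (the usual CPM unit) after TMM scaling of each sample's total. The mitochondrial share of counts was 9.12% to 9.32% uninjured, 7.23% to 7.28% on day 1 and 4.39% to 4.52% on day 3. Libraries shared 8 pairs of identical cell barcodes. The tables list few genes seen in under 5 barcodes of a sample, so a member that is not listed in a table is not a measured 0, and no fold is given against it.

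Interferon response genes did not move as 1 block after injury: at day 1 some rose and others fell, and at day 3 most stood above the uninjured level. IFI27, IFI6, ISG15 and OAS1 rose at each step, ISG20 was highest at day 1, and OAS3, IFIT5, IFIH1 and IFI35 were lowest at day 1. In the sums over all cells, 14 of the 33 tested members rose from uninjured to day 1 and 8 fell, where 30.5% of all genes tested rose and 31.7% fell (edgeR quasi-likelihood test, Benjamini-Hochberg adjusted p under 0.05). At day 3 against uninjured, 25 rose and 2 fell, against 28.8% and 26.4% of all genes. At day 3 against day 1, 23 rose and 4 fell, against 30.5% and 28.8%. The median log2 change of the tested members was 0.09, 1.28 and 1.32 in those 3 comparisons, where the median of all genes was -0.06, -0.03 and 0.02. The day 1 samples enter both steps and the uninjured samples enter 2 of the comparisons, so these are not independent. In sums over all cells, a change in the share of a cell type and a change in RNA per cell cannot be told apart.

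The balance at day 1 depended on the scaling. With library totals alone in place of TMM, which moved the median of all genes to -0.40 at day 1 and -0.46 at day 3 against uninjured, 12 members rose and 15 fell at day 1, so that members that rose made up 44.4% of those called in place of 63.6%. At day 3 the same scaling gave 18 members that rose and 4 that fell, or 81.8% in place of 92.6%, and 85.2% in both scalings at day 3 against day 1. Without uninjured replicate 2, 5 members in place of 8 fell at day 1.

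**Figure D1:**
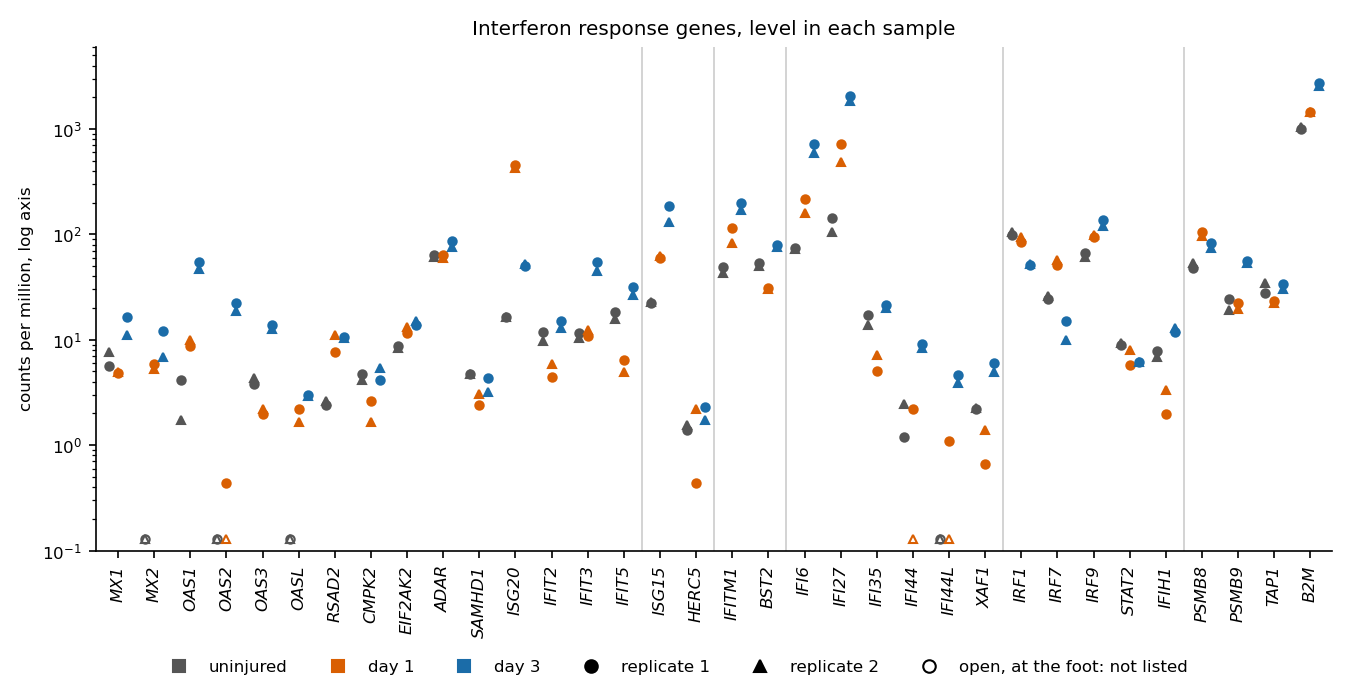
Level of each of the 34 members present (columns) in CPM on a log axis, with 1 point per sample and colours for the 3 groups. Open markers at the foot of the axis are members that a sample's table does not list. ISG20 (460 and 426 CPM) is the highest at day 1 of the 3 members that rose and then fell in edgeR, with IRF7 and PSMB8, whereas IFI27 and B2M are highest at day 3.

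Antiviral effectors formed the largest group, with 15 members tested, of which 6 rose and 4 fell at day 1, 12 rose and 0 fell at day 3 against uninjured, and 9 rose and 1 fell at day 3 against day 1. Of all genes, 30.5% rose and 31.7% fell at day 1. The shares were 28.8% and 26.4% at day 3 against uninjured, and 30.5% and 28.8% at day 3 against day 1. In the comparison with 0 lower calls, DESeq2 called 0 as well, and no effector had both a lower value and an unadjusted p under 0.05. The oligoadenylate synthetases make the second messenger that activates RNase L in response to double-stranded RNA. OAS1 was at 4.18 and 1.74 CPM uninjured, 8.81 and 9.99 at day 1 and 55.3 and 46.8 at day 3. Its samples of the 3 groups did not overlap and increased in the order of the days: the mean was 3.17-fold higher at day 1 (log2 1.68 ± 0.33 SE, edgeR adjusted p = 0.000952) and 17.2-fold higher at day 3 (log2 4.13 ± 0.24, adjusted p = 6.66e-08). OAS3 was at 3.79 and 4.36 CPM uninjured, 1.98 and 2.22 at day 1 and 13.8 and 12.8 at day 3. It was therefore lowest at day 1 and highest at day 3, 3.26-fold above uninjured (edgeR adjusted p = 6.76e-05). Its day 1 fall (log2 -0.96 ± 0.35, adjusted p = 0.0306) was lost with DESeq2 (adjusted p = 0.181) and without uninjured replicate 2 or either day 1 replicate. OAS2 was not listed in the uninjured samples or in day 1 replicate 2, had 0.441 CPM in day 1 replicate 1, and reached 22.3 and 18.6 CPM at day 3. OASL, a related protein that enhances RNA sensing without making the messenger, was not listed in uninjured samples, and its 2.20 and 1.66 CPM at day 1 and 2.99 and 2.94 at day 3 did not pass the test against each other (edgeR adjusted p = 0.396).

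The MX proteins are dynamin-like GTPases that trap viral components. MX1 was at 5.58 and 7.68 CPM uninjured, 4.85 and 4.99 at day 1 and 16.3 and 11.0 at day 3. Both day 1 samples lay just under the uninjured ones (edgeR adjusted p = 0.23), and the day 3 samples were the highest, 2.07-fold above uninjured (adjusted p = 0.00354). That rise was lost with DESeq2 (adjusted p = 0.0628) and without day 3 replicate 1 (edgeR, 0.0656), and with library totals alone MX1 passed as lower at day 1. MX2 was in neither uninjured table and stood at 5.95 and 5.27 CPM at day 1 and 12.2 and 6.87 at day 3. Both its day 1 and day 3 levels passed against uninjured with the missing values at 0 and with them set to 4 counts; the step from day 1 to day 3 passed in the second setting and without day 3 replicate 2 (edgeR adjusted p = 0.0717 in the first, 0.0371 and 0.0202 in these).

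The IFIT proteins bind foreign RNA and limit its translation. IFIT5 was at 18.5 and 15.9 CPM uninjured, 6.39 and 4.99 at day 1 and 31.8 and 26.7 at day 3. It was low in both day 1 samples, 3.02-fold under uninjured (log2 -1.57 ± 0.21, edgeR adjusted p = 5.54e-05), and 1.70-fold above it at day 3 (adjusted p = 0.00094), a rise that was lost with library totals alone. IFIT2 had the same low point, with 11.96 and 9.77 CPM uninjured, 4.41 and 5.83 at day 1 and 15.2 and 13.0 at day 3. Its fall passed the test (edgeR adjusted p = 0.00195), and its day 3 level did not differ from uninjured beyond the spread (adjusted p = 0.104). IFIT3 showed no low point in the sums, at 11.6 and 10.3 CPM uninjured and 10.8 and 12.5 at day 1, and then 54.1 and 45.1 CPM at day 3. Its day 1 samples overlapped the uninjured ones (edgeR adjusted p = 0.723), and its day 3 level was 4.54-fold above them (log2 2.19 ± 0.15, adjusted p = 3.42e-07).

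ISG20, an exonuclease that degrades single-stranded RNA, had the largest change at day 1 among members listed in every sample. It was at 16.3 and 16.6 CPM uninjured, 460 and 426 at day 1, and 50.4 and 52.0 at day 3. Both day 1 samples were far above all others: 26.9-fold over uninjured (log2 4.75 ± 0.10, edgeR adjusted p = 2.87e-11). At day 3 the level was 8.65-fold under that of day 1 and still 3.11-fold above uninjured (edgeR adjusted p = 3.29e-07). RSAD2 (viperin), which makes a chain-terminating nucleotide, was at 2.39 and 2.62 CPM uninjured, 7.71 and 11.1 at day 1 and 10.6 and 10.3 at day 3. Its day 1 and day 3 samples overlapped (edgeR adjusted p = 0.536), and both groups were above uninjured by 3.76-fold and 4.17-fold (adjusted p = 0.000194 and 9.32e-05). The RNA-activated kinase EIF2AK2 rose 1.46-fold at day 1 and 1.69-fold at day 3 (edgeR adjusted p = 0.0233 and 0.00326). Both calls on EIF2AK2 were lost with library totals alone (log2 0.20 and 0.34) and with DESeq2, and the day 1 call also without either uninjured replicate or day 1 replicate 2 (edgeR adjusted p = 0.0588 to 0.113). The RNA-editing enzyme ADAR was 1.30-fold above uninjured at day 3 (edgeR adjusted p = 0.00419; 0.931 at day 1). This call was lost with DESeq2 (adjusted p = 0.0616), without day 3 replicate 1 (edgeR, 0.0571) and with library totals alone, where the change was -0.04 and ADAR passed as lower at day 1 (log2 -0.35). CMPK2, a mitochondrial nucleotide kinase, fell at day 1 to 2.64 and 1.66 CPM from 4.78 and 4.19 (edgeR adjusted p = 0.0437) and was at 4.15 and 5.39 at day 3. The fall of CMPK2 was lost with DESeq2 (adjusted p = 0.216), with the replicate number as a block (edgeR, 0.0742) and when any 1 sample other than day 1 replicate 1 was left out (0.0527 to 0.186), and its rise from day 1 to day 3 was lost in the same settings and without doublets. SAMHD1, which lowers the nucleotide pool, passed in none of the 3 comparisons, with values of 2.42 to 4.78 CPM; at day 1 it passed as lower with library totals alone and with unlisted genes at 4 counts.

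ISG15, a ubiquitin-like protein that is attached to other proteins and also secreted, was at 22.3 and 22.7 CPM uninjured, 60.2 and 61.9 at day 1 and 185 and 131 at day 3. No samples of different groups overlapped. The rise was 2.71-fold at day 1 (log2 1.44 ± 0.18, edgeR adjusted p = 2.74e-05) and 7.03-fold at day 3 (log2 2.81 ± 0.15, adjusted p = 4.71e-08). HERC5 had 1.39 and 1.57 CPM uninjured, 0.441 and 2.22 at day 1 and 2.303 and 1.72 at day 3. Its day 1 samples overlapped both other groups, and its day 3 samples lay just above the uninjured ones, at counts too low to test.

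The 2 membrane restriction factors moved apart at day 1 and together at day 3. IFITM1, which blocks the fusion of viral with cell membranes, was at 48.8 and 42.7 CPM uninjured, 116 and 83.2 at day 1 and 197 and 171 at day 3. Its groups did not overlap, with a 2.17-fold rise at day 1 and a 4.02-fold rise at day 3 (edgeR adjusted p = 4.25e-05 and 3.28e-07). BST2 (tetherin), which holds budding virus at the cell surface, was at 53.0 and 50.1 CPM uninjured, 31.1 and 30.5 at day 1 and 78.5 and 75.3 at day 3. It fell at day 1 by 0.74 ± 0.10 on the log2 scale (edgeR adjusted p = 4.91e-05) and rose above uninjured by 1.49-fold at day 3 (adjusted p = 0.000113), a rise that was lost with library totals alone (log2 0.16).

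Of the 6 tested interferon-inducible proteins grouped apart from the effectors, 2 rose and 1 fell at day 1, 5 rose and 0 fell at day 3 against uninjured, and all 6 rose from day 1 to day 3. The shares of all genes were those given for the antiviral effectors, near the counts here at day 1. The 0 lower calls at day 3 against uninjured also hold with DESeq2 and for lower values at an unadjusted p under 0.05. IFI27, a small mitochondrial protein, was at 143 and 105 CPM uninjured, 719 and 487 at day 1 and 2058 and 1861 at day 3. No samples of different groups overlapped, with a 4.85-fold rise at day 1 (log2 2.28 ± 0.18, edgeR adjusted p = 6.75e-07) and a 15.8-fold rise at day 3 (log2 3.98 ± 0.19, adjusted p = 1.47e-08). IFI6, a related protein that opposes cell death, was at 74.9 and 72.4 CPM uninjured, 215 and 160 at day 1 and 715 and 592 at day 3. It followed the same order, 2.54-fold and 8.87-fold above uninjured (edgeR adjusted p = 6.87e-06 and 8.59e-09). IFI35, a cytosolic protein that partners NMI, was lowest at day 1, with 17.3 and 13.95 CPM uninjured, 5.07 and 7.21 at day 1 and 21.4 and 19.9 at day 3. Its fall was 2.55-fold (edgeR adjusted p = 0.000205), and its day 3 level did not pass against uninjured (adjusted p = 0.0529), though it did without uninjured replicate 1 or either day 1 replicate and with unlisted genes at 4 counts (0.0339 to 0.0476).

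The remaining 3 of these proteins were low. IFI44 was at 1.20 and 2.44 CPM uninjured, 2.20 in day 1 replicate 1, not listed in day 1 replicate 2, and at 9.21 and 8.34 at day 3 (edgeR adjusted p = 0.00308 against uninjured; 0.0545 with DESeq2). IFI44L, its neighbour and relative, was missing from both uninjured tables and from day 1 replicate 2, and stood at 1.10 CPM in day 1 replicate 1 and 4.61 and 3.92 at day 3. Its rise from day 1 to day 3 was lost with DESeq2 (adjusted p = 0.103). It was also lost without day 1 replicate 2 or either day 3 replicate (log2 1.93 to 2.87, against 2.75 in the full fit). XAF1, which antagonises an inhibitor of apoptosis, was at 2.19 and 2.27 CPM uninjured, 0.661 and 1.39 at day 1 and 5.99 and 4.90 at day 3. Both day 3 samples were above all others, with an edgeR adjusted p = 0.0168 against uninjured that was lost with DESeq2 (adjusted p = 0.162), with library totals alone, and without day 3 replicate 1 or either uninjured replicate (0.0786 to 0.141).

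Transcription factors and the RNA sensor did not share a direction: of 5 tested, 2 rose and 1 fell at day 1, and 2 rose and 2 fell at day 3. Of all genes, 30.5% rose and 31.7% fell at day 1, and 28.8% rose and 26.4% fell at day 3. Counts this small were not tested against those shares. IRF7, which drives transcription of type I interferon genes, was at 24.1 and 25.8 CPM uninjured, 51.1 and 56.6 at day 1 and 15.2 and 10.1 at day 3. It was highest at day 1 (2.16-fold, log2 1.10 ± 0.14, edgeR adjusted p = 4.05e-05) and at day 3 lay 1.98-fold under uninjured (adjusted p = 0.000745). IRF1, which acts downstream of type II interferon, was at 98.8 and 106 CPM uninjured, 84.6 and 94.9 at day 1 and 51.1 and 52.2 at day 3. Its day 1 change did not pass (edgeR adjusted p = 0.0583), though it did without day 1 replicate 2 (0.0235) and with library totals alone, and at day 3 it was 1.98-fold lower (log2 -0.98 ± 0.09, adjusted p = 2.71e-06).

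IRF9, the DNA-binding part of its complex with STAT2, rose in steps, from 66.0 and 61.4 CPM to 94.8 and 99.3 at day 1 and 136 and 121 at day 3 (2.02-fold at day 3, edgeR adjusted p = 1.74e-06). STAT2 passed in no comparison of the 6 samples with TMM, at 8.97 and 9.42 CPM uninjured, 5.73 and 8.05 at day 1 and 6.22 and 6.13 at day 3. It passed as lower at both days with library totals alone, and at day 3 without either day 1 replicate (edgeR adjusted p = 0.0411 and 0.0453). IFIH1 (MDA5), a sensor of long double-stranded RNA, was at 7.77 and 6.80 CPM uninjured, 1.98 and 3.33 at day 1 and 11.97 and 13.0 at day 3. It was lowest at day 1, 2.74-fold under uninjured (edgeR adjusted p = 0.0014). Its day 3 rise over uninjured (adjusted p = 0.00898) was lost with DESeq2 (adjusted p = 0.182), with library totals alone, and without uninjured replicate 2 or day 3 replicate 2 (0.063 for each).

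Antigen processing members split in the same table. PSMB8, an immunoproteasome subunit that cuts peptides for MHC class I, was at 48.2 and 53.6 CPM uninjured, 106 and 96.6 at day 1 and 82.9 and 73.6 at day 3. It was highest at day 1, 1.99-fold above uninjured (log2 1.00 ± 0.09, edgeR adjusted p = 3.29e-06), and 1.54-fold above it at day 3, a rise that was lost with library totals alone. The fall of PSMB8 from day 1 to day 3 passed in edgeR (adjusted p = 0.00411) and was lost with DESeq2 (adjusted p = 0.0623). PSMB9, its partner subunit, was at 24.1 and 19.4 CPM uninjured and 22.3 and 19.7 at day 1, which overlapped (edgeR adjusted p = 0.85), and at 56.2 and 53.0 at day 3, 2.51-fold higher (adjusted p = 5.1e-06). TAP1, a subunit of the transporter that carries peptides into the endoplasmic reticulum, was at 27.9 and 34.9 CPM uninjured, 23.6 and 22.5 at day 1 and 33.9 and 30.4 at day 3. Its day 1 fall (edgeR adjusted p = 0.0186) was lost with DESeq2 (adjusted p = 0.16), without day 1 replicate 2 (0.0601) and without uninjured replicate 2 (0.164), and its day 3 change of 0.03 turned to -0.39 with library totals alone. B2M, the light chain of MHC class I, was at 1009 and 1039 CPM uninjured, 1462 and 1446 at day 1 and 2712 and 2544 at day 3. Its replicates lay close and its groups apart, with a 1.42-fold rise at day 1 that was lost with library totals alone and a 2.57-fold rise at day 3 (edgeR adjusted p = 0.000135 and 6.32e-08).

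**Figure D2:**
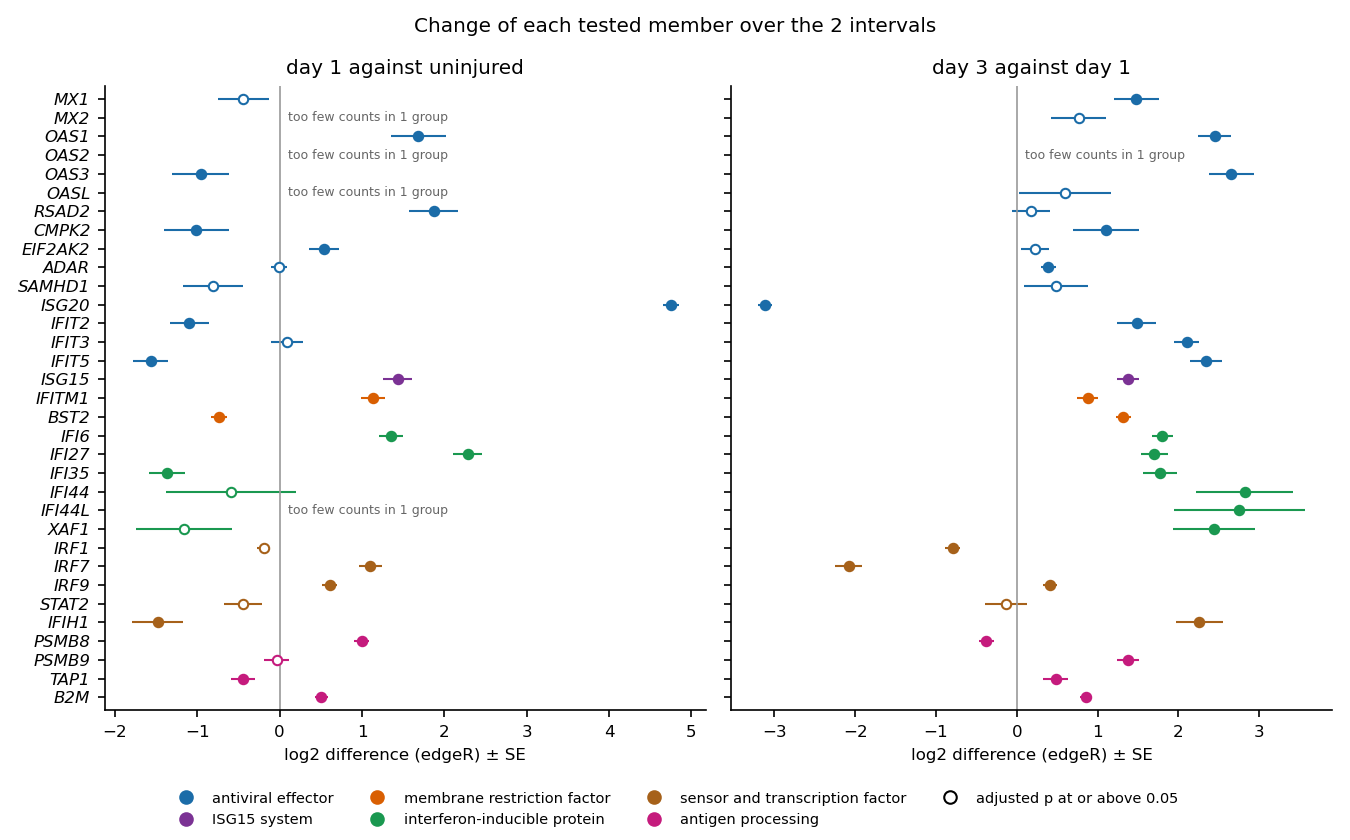
Log2 change (points, with SE bars) of the 33 tested members from uninjured to day 1 (left) and from day 1 to day 3 (right); filled points passed the edgeR test at an adjusted p under 0.05, and members with 3 or fewer counts in a group carry text in place of a point. ISG20 lies at 4.75 on the left and -3.11 on the right, while OAS3, IFIT5, IFIH1 and IFI35 lie under 0 on the left and over 0 on the right.

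Genes that lie next to each other did not always move alike. In the RefSeq order of the assembly T2T-MFA8v1.1, used for neighbours only, OAS1 and OAS3 have no coding gene between them, nor do RSAD2 and CMPK2, and at day 1 the first of each pair rose and the second fell. PSMB8 and TAP1 are separated by 1 gene, and PSMB8 rose where TAP1 fell. The falls of OAS3, CMPK2 and TAP1 were all lost with DESeq2, so these contrasts rest on the edgeR calls. At day 3 against uninjured, OAS1, OAS2 and OAS3 all rose, as did MX1 and MX2 and the pair IFI44 and IFI44L. Members with close relatives (the OAS, MX and IFITM families, and IFI27) can share reads with them, and whether counting used strand is not stated, so reads of overlapping genes cannot be told apart.

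Members of the pathway outside the list were counted in the same fit: of 70 tested, 33 rose and 11 fell at day 1, and 40 rose and 7 fell at day 3 against uninjured. That is beside 30.5% and 31.7% of all genes at day 1, and 28.8% and 26.4% at day 3. Among ligands only IFNE, an epithelial type I interferon, appeared in the tables, with 5.51 and 3.88 CPM at day 1 and 0.461 CPM in day 3 replicate 1, and no listing in the remaining samples. Type II and type III receptor genes were highest at day 1. IFNGR1 was at 110 and 102 CPM uninjured, 284 and 309 at day 1 and 142 and 147 at day 3, and IFNGR2 rose 2.79-fold at day 1 (edgeR adjusted p = 8.7e-08). IFNLR1, the chain specific to type III interferon, was at 10.2 and 8.37 CPM uninjured, 30.2 and 25.8 at day 1 and 10.4 and 9.07 at day 3. IFNAR1, a chain of the type I receptor, fell 1.42-fold at day 1 (edgeR adjusted p = 0.00135).

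Among signal transducers, 4 of 8 rose and 2 fell at day 1, where 30.5% of all genes rose and 31.7% fell. JAK2 rose 1.90-fold at day 1 only (edgeR adjusted p = 5.02e-05). Of the 4 inhibitors, SOCS1 and SOCS3, which block JAK signalling, fell at both days. SOCS1 was at 52.6 and 50.6 CPM uninjured, 12.3 and 13.0 at day 1 and 8.29 and 9.81 at day 3. SOCS3 went from 233 and 253 CPM to 98.5 and 132 and then 37.3 and 31.1, a fall of 2.82 ± 0.14 on the log2 scale at day 3 (edgeR adjusted p = 1.77e-08).

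Of 9 sensors and adaptors, 3 rose and 3 fell at day 1, shares near those of all genes, and 4 rose at day 3. STING1, the adaptor for cytosolic DNA, was at 3.39 and 5.06 CPM uninjured, 52.9 and 45.2 at day 1 and 44.0 and 43.6 at day 3, 11.6-fold above uninjured at day 1 (edgeR adjusted p = 2.43e-08). MAVS, the adaptor for RNA sensors, fell 3.18-fold at day 1 (edgeR adjusted p = 0.000757). Of 35 other interferon-stimulated genes, 15 rose and 3 fell at day 1, and 25 rose and 2 fell at day 3. DDX60, a helicase linked to RNA sensing, was at 3.99 and 5.41 CPM uninjured, 5.95 and 6.94 at day 1 and 177 and 139 at day 3, a 33.6-fold rise at day 3 (edgeR adjusted p = 1.1e-09). TNFSF10 (TRAIL), a death ligand, was lowest at day 1, with 252 and 236 CPM uninjured, 33.9 and 42.5 at day 1 and 204 and 185 at day 3. Of 8 other antigen processing genes, 6 rose at day 1 and 7 at day 3, among them NLRC5, an activator of MHC class I genes, which rose 3.76-fold at day 1 (edgeR adjusted p = 1.19e-06).

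The members together took a small and rising share of all counts. All members made up 0.217% ± 0.00095 (SD, n = 2) of counts before injury, 0.322% ± 0.0129 at day 1 and 0.573% ± 0.0402 at day 3. Without B2M, which alone held 40.0% to 57.2% of the members' counts, the shares were 0.0981% and 0.0926% uninjured, 0.197% and 0.173% at day 1, and 0.361% and 0.318% at day 3. These groups did not overlap. IFI27 made up 7.80% and 5.79% of the members' counts without injury, 19.98% and 15.01% at day 1 and 30.4% in both day 3 samples. With B2M and IFI27 both left out, the means were 0.0806%, 0.128% and 0.165%. As medians over cells these shares were 0.0717%, 0.0926% and 0.0994%. ISG20 remains in both. It held 0.89% and 0.913% of the members' counts uninjured, 12.8% and 13.1% at day 1, and 0.744% and 0.85% at day 3.

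Cells were grouped into classes by clustering without the members and the other pathway genes. Clusters were largely specific to a day, so each class joins different clusters at each day: basal-like cells (cluster 0 uninjured, 5 at day 1, 7 at day 3), corneal-like cells (2, 1 and 4) and conjunctival-like cells (9, 8 and 6). Of the 10 leading genes, 2 were own markers in each basal-like cluster, 3 in each corneal-like cluster and 1, KRT4, in each conjunctival-like cluster. In the order of the days, 5, 7 and 8 of 11 basal and limbal, 4, 5 and 3 of 7 corneal, and 5, 6 and 6 of 7 conjunctival markers were raised. S100A8, a calgranulin of inflamed epithelium, was among the leading genes of the conjunctival-like clusters, CXCL1 and CXCL6 of the uninjured basal-like cluster, and DDX60 of the day 3 corneal-like cluster. The member IFITM1 was among those of the day 3 conjunctival-like cluster. Of 1248 barcodes left in no class, 1046 were in cluster 3 (13.5% of uninjured and 12.7% of day 1 barcodes) or cluster 10 (13.6% of day 3 barcodes, with COL1A1 and FN1 leading), and 202 were scattered over other clusters. At day 1 cluster 3 met the marker check for basal and limbal cells, with 7 of 11 markers raised. In the uninjured samples it met no check, and it was therefore left unnamed. The day 3 basal-like cluster had CXCL14, SLC12A7, COL7A1, HTRA1 and VIT among its leading genes, as had cluster 3 at day 1. The uninjured and day 1 basal-like clusters had KRT14, PENK, CXCL6 and MMP1 among theirs. Whether the basal-like changes at day 3 reflect this difference between clusters was not tested. Classes were compared on counts summed per sample and class.

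At day 1 the members rose mainly in conjunctival-like cells. Of 25 members tested there, 13 rose and 1 fell, where 24.7% of all genes rose and 21.9% fell (edgeR, adjusted p under 0.05). In basal-like cells 6 of 23 rose and 6 fell (28.7% and 29.1% of all genes), and in corneal-like cells 7 of 30 rose and 9 fell (27.6% and 27.9%). The median log2 change of the tested members was 0.97, -0.10 and -0.26 in that order. At day 3 against uninjured, 24 of 30 rose and 1 fell in corneal-like cells (25.1% and 22.2% of all genes), 11 of 23 rose and 3 fell in basal-like cells (24.6% and 22%), and 13 of 25 rose and 2 fell in conjunctival-like cells (23.4% and 18.6%). The medians were 1.49, 0.43 and 0.73 in that order.

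Some of these counts rest on single libraries. In basal-like cells 3 in place of 6 members rose at day 1 without uninjured replicate 1. In corneal-like cells 4 in place of 7 rose at day 1 without uninjured replicate 2, and 4 in place of 9 fell without day 1 replicate 1. The 1 fall in conjunctival-like cells at day 1, that of IFIH1, was lost whichever 1 of the 6 samples was left out, and 1 in place of 2 members fell there at day 3 without uninjured replicate 2.

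**Figure D3:**
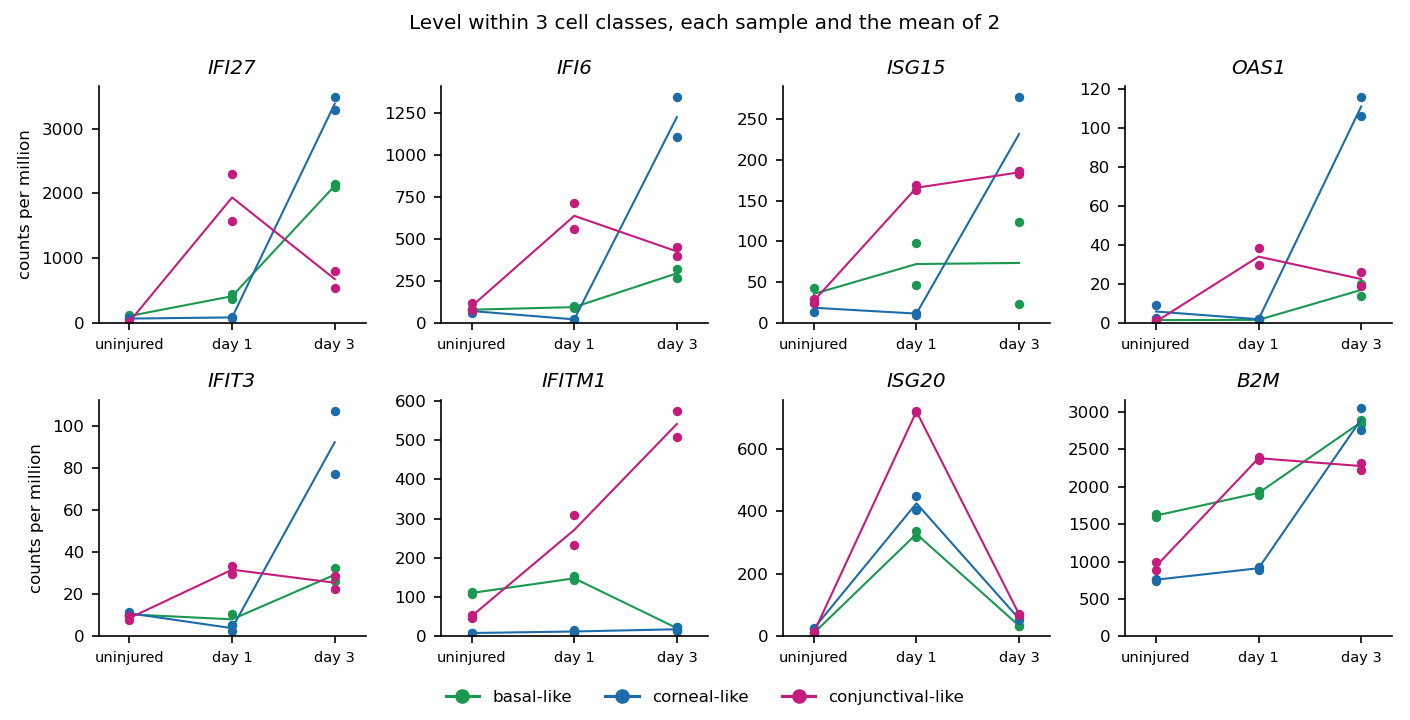
Level of 8 members (panels) in CPM on a linear axis in basal-like, corneal-like and conjunctival-like cells at each day, with 1 point per sample and a line through the group means. IFI27 and IFI6 peak at day 1 in conjunctival-like cells (2302 and 1571 CPM for IFI27) and at day 3 in corneal-like cells (3483 and 3279.8 CPM), while ISG20 peaks at day 1 in every class.

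IFI27 took different courses in the 3 classes. In conjunctival-like cells it was at 21.7 and 16.8 CPM uninjured, 2302 and 1571 at day 1 and 808 and 546 at day 3. In corneal-like cells it was at 76.3 and 57.7 CPM uninjured, 88.3 and 81.7 at day 1, a 1.27-fold rise that was lost with library totals alone, without day 1 replicate 1 and without uninjured replicate 2 (edgeR adjusted p = 0.07 and 0.404 for the replicates), and 3483 and 3279.8 at day 3. In basal-like cells it rose at both steps, from 117 and 97.6 CPM to 451 and 373 and then 2094 and 2139. The day 1 change was larger in conjunctival-like than in corneal-like cells by 6.34 on the log2 scale (interaction test, edgeR adjusted p = 3.63e-35). Conjunctival-like cells held 80.5% (95% exact binomial interval 79.1 to 81.8) and 74.8% (72.7 to 76.8) of all IFI27 counts in the day 1 samples, and 25.8% and 24.0% of all counts. At day 3 corneal-like cells held 62.2% (61.2 to 63.2) and 61.7% (60.6 to 62.8) of IFI27 counts and 38.0% and 36.0% of all counts. These intervals cover counting error only. Cluster 3 was in no class, though it met the basal and limbal marker check at day 1. It held 45.9% (42.2 to 49.6) and 46.7% (42.6 to 50.8) of IFI27 counts in the uninjured samples and 2.45% (1.95 to 3.04) and 3.48% (2.67 to 4.45) at day 1. The day 1 rise in basal-like cells was not tested with cluster 3 included. IFI27 was lower in that cluster at day 1, at 0.0142% and 0.0139% of its counts against 0.0528% and 0.0489% uninjured, a difference that was not tested. The day 3 basal-like cluster shared leading genes with cluster 3, and the uninjured basal-like cluster did not.

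IFI6 and ISG15 also differed between classes, and in corneal-like cells they were not above uninjured at day 1. IFI6 was at 79.8 and 61.9 CPM in uninjured corneal-like cells, 23.1 and 19.1 at day 1 and 1345 and 1108 at day 3. Its day 1 samples were the lowest there, 3.36-fold under uninjured, and its day 3 samples the highest, 17.3-fold above (both passed in edgeR). In conjunctival-like cells IFI6 was at 77.5 and 121 CPM uninjured, 715 and 561 at day 1 and 451 and 401 at day 3, so the change at day 1 had the opposite sign (difference 4.41 on the log2 scale). ISG15 was at 24.5 and 29.7 CPM in uninjured conjunctival-like cells, 169 and 163 at day 1 and 183 and 187 at day 3. In corneal-like cells ISG15 was at 24.4 and 12.8 CPM uninjured, 12.8 and 10.1 at day 1, which passed as a fall only without uninjured replicate 2 (edgeR adjusted p = 0.03) or with library totals alone, and 278 and 186 at day 3. In basal-like cells its day 3 samples were far apart, at 124 and 23.6 CPM, and the rise there turned to -0.59 and did not pass without day 3 replicate 1 (edgeR adjusted p = 0.246). It was also lost without uninjured replicate 1 (edgeR adjusted p = 0.137).

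Among the effectors, OAS1 and IFIT3 showed the same split. OAS1 had 1 and 0 counts in uninjured conjunctival-like cells, 34 and 32 at day 1 and 35 and 24 at day 3, a ratio of 58.3 at day 1 with a 95% counting interval of 10.1 to 2338. In corneal-like cells it was at 9.15 and 2.56 CPM uninjured, 1.96 and 1.79 at day 1 and 116 and 106 at day 3. Its fall at day 1 in corneal-like cells (edgeR adjusted p = 0.0384) was lost in finer clusters and when any 1 sample other than uninjured replicate 2 was left out, and the day 3 rise was 19.0-fold. IFIT3 rose 3.63-fold at day 1 in conjunctival-like cells, from 9.51 and 7.92 CPM to 29.8 and 33.5, and fell 2.81-fold in corneal-like cells, a fall that was lost without day 1 replicate 1. ISG20 rose at day 1 in each class, by 4.95 ± 0.19 in basal-like, 4.08 ± 0.13 in corneal-like and 5.82 ± 0.19 in conjunctival-like cells on the log2 scale.

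IFITM1 had most of its counts in basal-like cells before injury and in conjunctival-like cells after it. It was at 108 and 113 CPM in uninjured basal-like cells, 153 and 143 at day 1 and 24.97 and 17.4 at day 3, a 5.23-fold fall at day 3 (log2 -2.37 ± 0.21). In conjunctival-like cells it was at 55.7 and 47.5 CPM uninjured, 311 and 232 at day 1 and 575 and 507 at day 3, a 10.5-fold rise at day 3 (log2 3.40 ± 0.17). Both changes passed in edgeR. The basal-like change at day 3 compares clusters with different leading genes. Basal-like cells held 60.4% (95% interval 54.0 to 66.6) and 64.9% (58.6 to 70.9) of IFITM1 counts in uninjured samples, and conjunctival-like cells held 90.5% (88.4 to 92.4) and 91.5% (89.2 to 93.5) at day 3. In corneal-like cells IFITM1 was at 8.12 to 23.2 CPM over the 6 samples.

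Antigen processing genes and regulators also differed between classes. B2M was at 887 and 988 CPM in uninjured conjunctival-like cells, 2361 and 2400.1 at day 1 and 2323 and 2229 at day 3. In corneal-like cells it was at 744 and 771 CPM uninjured, 892 and 929 at day 1 and 3049 and 2751 at day 3, a 3.83-fold rise at day 3. TAP1 fell at day 1 in basal-like cells, from 34.4 and 35.6 to 10.7 and 10.8 CPM, and did not pass in the other classes. IRF1 fell at day 3 in each class, by 0.93 in basal-like, 0.85 in corneal-like and 1.29 in conjunctival-like cells on the log2 scale, and all 3 falls passed in edgeR. IRF7 rose at day 1 in corneal-like cells, from 24.4 and 20.1 to 68.2 and 56.1 CPM, and fell at day 3 in the other 2 classes. The fall in conjunctival-like cells was lost without uninjured replicate 2 (edgeR adjusted p = 0.0688).

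**Figure D4:**
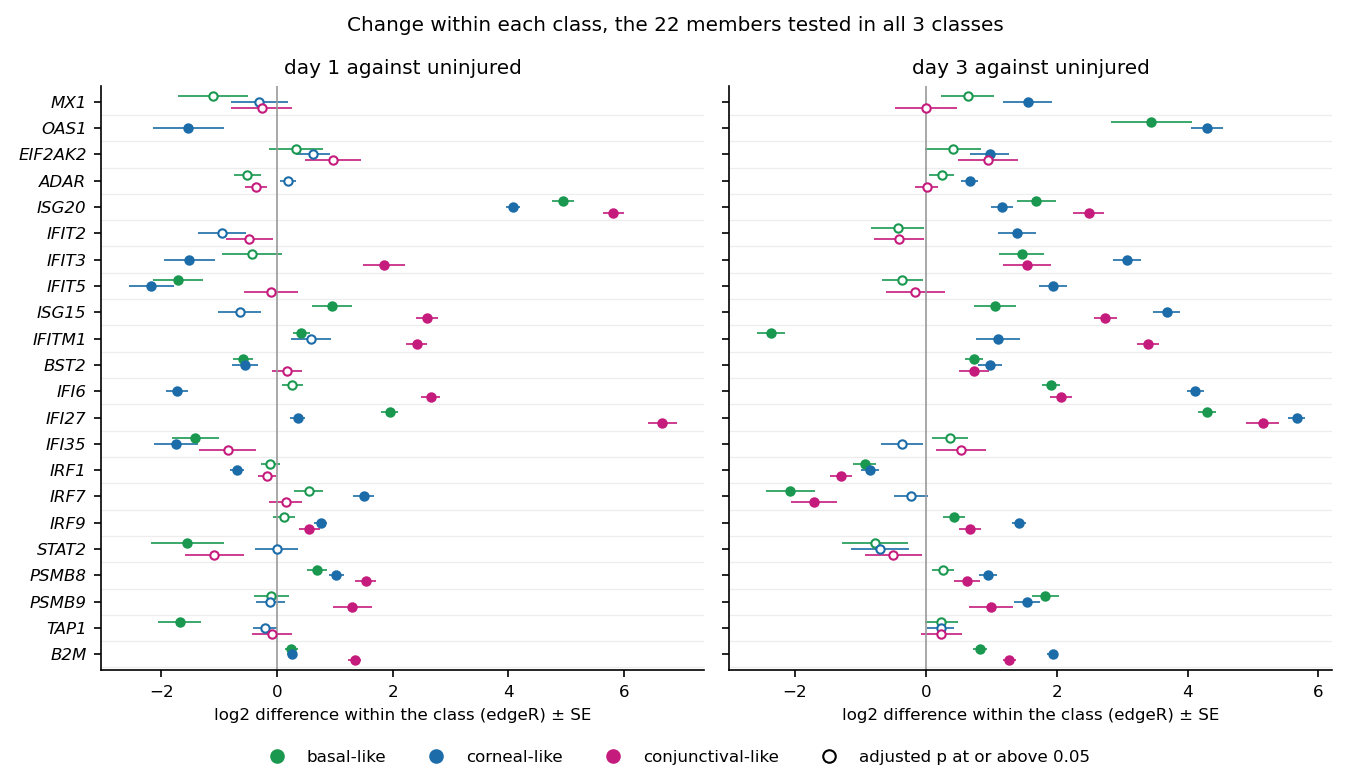
Log2 change from uninjured (points, with SE bars) of the 22 members tested in all 3 classes, at day 1 (left) and day 3 (right), with colours for the classes and filled points for an edgeR adjusted p under 0.05; changes with 3 or fewer counts in a group are not drawn. On the left IFI27 lies at 6.67 in conjunctival-like and 0.36 in corneal-like cells, and on the right IFITM1 lies at 3.40 in conjunctival-like and -2.37 in basal-like cells.

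The difference between classes was tested itself, with the class by day interaction. For the day 1 change in conjunctival-like against corneal-like cells, 11 of 31 tested members were higher and 1 was lower, where 7.7% of all genes were higher and 4.33% lower (edgeR, adjusted p under 0.05). For basal-like against corneal-like cells at day 1, 5 of 30 were higher and 4 lower (11.9% and 11% of all genes). At day 3, 0 were higher and 12 lower in basal-like against corneal-like cells (11.5% and 11%); 0 were higher at an unadjusted p under 0.05, and no other tool was run on the interaction. These counts depend on the clustering. For basal-like against corneal-like cells in the finer clusters 3 were higher at day 1, and B2M and RSAD2 passed as lower beside ADAR, IRF7, IRF9 and TAP1. At day 3 there, 1 was higher (IFI35) and 7 were lower, since IFIT2, IFIT3, ISG15 and PSMB8 did not pass and IFI44 was not tested. In conjunctival-like against corneal-like cells at day 3, 2 were higher and 9 lower (6.1% and 6.18%). The interactions of conjunctival-like and corneal-like cells were not run in the finer clusters, and no interaction was refitted with a sample left out. IFI27, IFI6 and ISG15 had larger day 1 changes in basal-like than in corneal-like cells, by 1.62, 2.02 and 1.62, and at day 3 the differences were -1.34, -2.19 and -2.61 on the log2 scale.

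**Figure D5:**
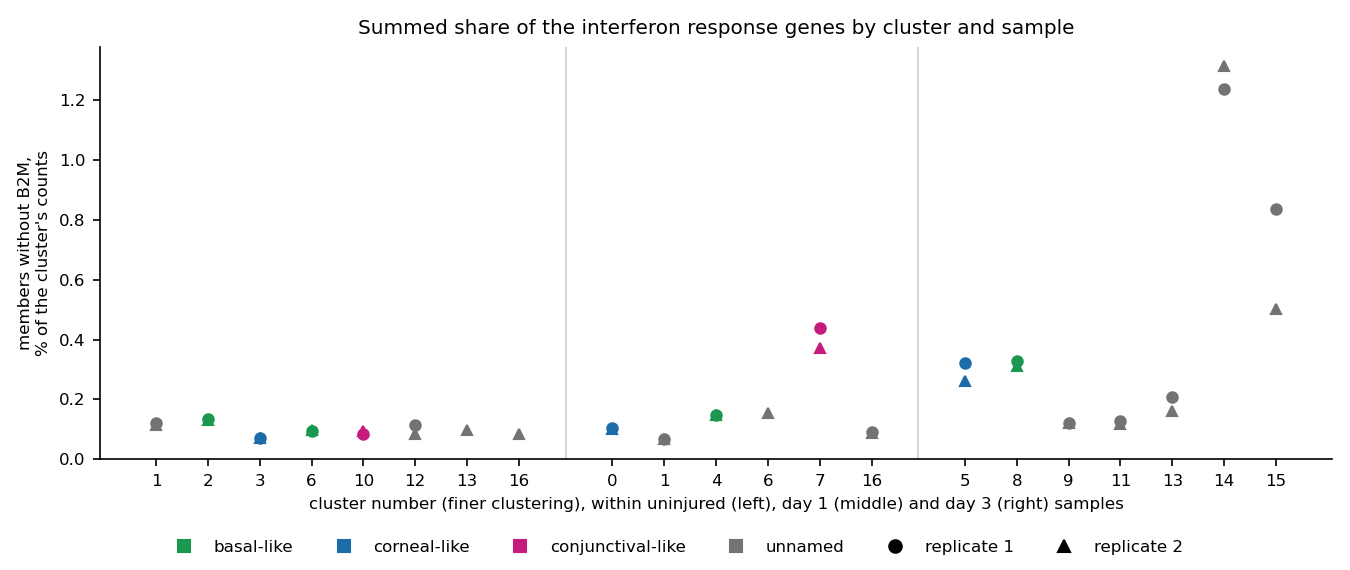
Percent of a cluster's counts taken by the members without B2M in each of the finer clusters, with the days side by side and 1 point per sample, for clusters of at least 20 cells. At day 3, cluster 14 stands apart at 1.24% and 1.32%, and cluster 15 is next at 0.836% and 0.503%.

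At a finer clustering, 2 day 3 clusters held much of several members; they were singled out after their values were seen and are described without a test. Cluster 14, with 82 and 65 cells, all from the corneal-like cluster of 365 and 338 cells, was led by PLAAT2, S100P, KRT78, a keratin of superficial cells, and MUC22, with OAS1 also among its leading genes. It made up 9.12% and 7.68% of counts at day 3 and held 55.0% (95% interval 48.5 to 61.4) and 57.1% (49.7 to 64.2) of OAS1 counts. It also held 51.9% (45.3 to 58.5) and 47.3% (39.9 to 54.8) of IFIT3 counts, 43.3% (39.8 to 46.8) and 40.9% (36.7 to 45.2) of ISG15 counts and 35.2% (34.2 to 36.2) and 37.6% (36.6 to 38.8) of IFI27 counts. Its share of B2M was lower, at 14.7% (14.05 to 15.3) and 11.7% (11.1 to 12.3), and its share of IFITM1 was 1.52% (0.811 to 2.58) and 1.58% (0.792 to 2.81).

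Cluster 15 was the counterpart for IFITM1. Its 59 and 70 cells all came from the conjunctival-like cluster, with VMO1, RARRES1, PIP and IDO1 among its leading genes, and it held 62.0% (58.7 to 65.3) and 65.2% (61.6 to 68.8) of IFITM1 counts and 16.8% (14.3 to 19.6) and 25% (21.4 to 28.9) of ISG15 counts. In the fit on the finer clusters, the corneal-like class leaves out cluster 14 at day 3 and also holds fewer uninjured cells (363 and 329 in place of 457 and 430), so both sides of the comparison differ from the coarser classes. There the day 3 change was 4.73 ± 0.13 on the log2 scale for IFI27, 3.95 ± 0.13 for IFI6, 4.17 ± 0.38 for OAS1, 1.73 ± 0.27 for ISG15 and 1.85 ± 0.09 for B2M, all of which passed in edgeR. IFIT2, IFIT5, IFIH1 and IFITM1 did not pass there, IFI35 passed as lower, and MX1, MX2, IFI44, XAF1 and CMPK2 were too low to test.

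Per cell, the members varied most in conjunctival-like cells at day 1 and corneal-like cells at day 3. Each cell was thinned to 1500 counts, which left out shallower cells: 348 and 220 uninjured, 177 and 237 from day 1, 35 and 19 from day 3. Corneal-like cells had a median of 1 member count without B2M in each uninjured and day 1 sample and 4 in each day 3 sample, where the range from the 10th to the 90th percentile of cells was 1 to 16 and 1 to 12. Conjunctival-like cells had a median of 1 uninjured, 3 at day 1 (1 to 17 and 1 to 13) and 2 at day 3 (0 to 8 and 0 to 7). Basal-like cells had a median of 1 uninjured, 2 at day 1 and 4 at day 3 (1 to 8.8 and 1 to 9).

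Markers of other cell types moved with the days too. The 12 immune markers present of 14 summed to 143 to 175 CPM in uninjured samples, 224 to 254 at day 1 and 185 to 211 at day 3. LAPTM5 and C1QA were not listed in the uninjured and day 1 tables, CD3D in the uninjured and day 3 tables, FCER1G in the uninjured tables and GNLY at both days after injury. Only 13 barcodes formed an immune-like cluster; they held at most 0.707% of the members' counts without B2M in any sample, and every call on the members over all cells was the same without them. Conjunctival markers, with 7 of 12 present, summed to 9096 to 9455, 12063 to 15188 and 23154 to 23528 CPM in the order of the days, with PIGR not listed in uninjured samples. Basal and limbal markers, all 11 present, summed to 6879 to 7592, 5046 to 5894 and 25453 to 26609 CPM, with GPHA2 not listed at day 3. Of these 11, 5 passed as higher and 4 as lower at day 1 against uninjured (edgeR, adjusted p under 0.05). Superficial markers, with 7 of 9 present, summed to 71.1 to 85.5, 84.4 to 117 and 390 to 395 CPM, with SPINK7 and KRTDAP not listed before day 3. Cycling markers, with 6 of 8 present, summed to 37.7 to 94.9, 16.1 to 22.04 and 135 to 164 CPM, so they were lowest at day 1 and highest at day 3, as were OAS3, IFIT5, IFIH1 and IFI35. The sum of keratocyte and fibroblast markers, all 7 present, had the same order, at 418 to 542, 190 to 205 and 781 to 790.1 CPM. LUM, KERA, COL1A2 and COL3A1 were not listed in uninjured samples and THY1 was not listed before day 3. The single markers did not all follow this sum: of 4 tested, 2 passed as higher and 1 as lower at day 1 (edgeR, adjusted p under 0.05). Melanocyte markers, all 6 present, were highest in uninjured samples, at 62.8 to 81.98 CPM against 22.7 to 31.4 and 24.03 to 35.002, with TYRP1 and TYR not listed at day 3. The part of these marker shifts in the sums over all cells was not tested beyond the values within classes.

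The isoform tables name isoforms in 2 systems that cannot be compared, PB numbers for both uninjured samples and for replicate 1 of day 1, and Ensembl transcripts for the others. Isoforms matching a known transcript in full (FSM) made up 65.7% (95% interval 63.4 to 67.8), 63.8% (61.7 to 65.9) and 59.2% (57.8 to 60.5) of the members' isoform counts without B2M in the 3 PB tables, and all of them in the Ensembl tables. Isoforms with at least 1 unknown splice site (NNC) made up 15.1% (13.5 to 16.8) and 14.5% (13.0 to 16.1) in the uninjured samples and 26.0% (24.7 to 27.2) in day 1 replicate 1. These shares also move with the mix of genes. ISG15 had 102, 116 and 256 counts in these tables, all in 1 NNC isoform, while ISG20 had NNC isoforms in day 1 replicate 1 only. A change within genes was not tested. ISG20 had 49 and 47 isoform counts over 2 isoforms in the uninjured samples and 1859 over 18 isoforms in day 1 replicate 1. Its leading isoform was an FSM with 57.1% (42.2 to 71.2), 68.1% (52.9 to 80.9) and 56.5% (54.2 to 58.8) of them. IFI27 had only 97, 78 and 593 isoform counts where the gene tables held 719, 602 and 3261, and 58.8% (48.3 to 68.7), 62.8% (51.1 to 73.5) and 58.0% (53.9 to 62.0) of them were in the same NNC isoform.

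B2M shows how the tables differ. It had 5516, 6536 and 7830 counts in the PB tables, almost all in 2 NNC isoforms, and 3, 9 and 10 counts in the Ensembl tables, whose gene tables held up to 11775. In the PB tables the first of these isoforms held 65.5% (64.2 to 66.7) and 65.1% (64.0 to 66.3) of B2M counts in the uninjured samples and 54.9% (53.8 to 56.0) in day 1 replicate 1, the only day 1 sample of that kind. ISG15 and IFI6 had 0 isoform counts in the Ensembl tables. Isoform values are therefore given as a description of each table, with no test across the days.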

How the data were processed

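The members and all gene lists were chosen with earlier results of these data known. For each sample the authors deposited a gene by cell table and an isoform by cell table of whole-number counts, made from single-cell cDNA; per the submitters' processing notes Cell Ranger was used. Its role, the aligner, the build, the filters on barcodes and the read type behind the gene tables are not given in these sources. All 7895 deposited barcodes were used; Scrublet in scanpy 1.11.5 called 66 doublets and 68 barcodes held under 500 counts, left out as alternatives.

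Counts were summed per sample, since cells are not replicates. A single edgeR fit (version 4.0.16, in R 4.3.3) held the 6 sums, with group as its term, TMM factors, the filterByExpr filter, quasi-likelihood tests and Benjamini-Hochberg adjustment over all genes tested at 0.05. TMM factors were 1.19 and 1.19 uninjured, 0.922 and 0.966 at day 1, and 0.888 and 0.891 at day 3. A gene not listed in a table entered as 0, and, as an alternative chosen after seeing the data, as 4 counts. Replicate sums differed by more than counting error (chi-square per degree of freedom 1.92, 4.50 and 2.06). Folds are ratios of mean CPM, and log2 changes and SE come from the fit, which was tested on simulated data. DESeq2 1.42.0, library totals alone, no filter and leaving out each sample were alternatives. The 24 members given with every sample's value were the 20 with the largest log2 change among those that passed in any comparison, and the 4 antigen processing genes; further values are added for the remaining members.

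For classes, cells were clustered without members and pathway genes by the Leiden method (leidenalg 0.10.2, resolution 0.5), from 15 neighbours in 30 components of 2000 variable genes. Named against all cells, corneal-like clusters failed the marker check, so leading genes were taken within the same day's samples; this rule was set after seeing the clusters. The conjunctival-like class and its interaction were added after seeing the data, and the finer clusters (resolution 1) were chosen after their values were seen. Each class held at least 50 cells in each sample. Interactions were fitted on sums per sample and class with sample as a block. Intervals are 95% exact binomial (Clopper-Pearson) and, for the ratio of counts, exact Poisson-based. One gene of the wider pathway list is not reported here by name.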

Additional observations from a re-analysis of the deposited data

Results flagged for a closer look

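These results were singled out because a member's change from uninjured differed between 2 classes of cells by a test of the difference itself (edgeR interaction test, Benjamini-Hochberg adjusted p under 0.05). Values are the log2 change in the first class minus that in corneal-like cells. The replicates of the days are the same libraries in each class, and no cause of the differences was tested.

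At day 1 the change in conjunctival-like cells was larger than in corneal-like cells for OAS1 by 7.18, a value that depends on a single uninjured count, for IFI27 by 6.34 and for IFI6 by 4.41. It was also larger for IFIT3 by 3.41, ISG15 by 3.25, IFIT5 by 2.08 and IFITM1 by 1.88. The differences were 1.77 for ISG20, 1.45 for PSMB9, 1.11 for B2M and 0.57 for IRF1. IRF7 alone had a smaller change in conjunctival-like cells, with a difference of -1.32.

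At day 1 the change in basal-like cells was larger than in corneal-like cells for IFI6 by 2.02, IFI27 by 1.62, ISG15 by 1.62, ISG20 by 0.90 and IRF1 by 0.61. The differences were negative for TAP1 (-1.47), IRF7 (-0.93), ADAR (-0.67) and IRF9 (-0.60). The differences for ISG20 and IRF1 did not pass in the finer clusters, where B2M and RSAD2 also passed as negative.

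At day 3 the 12 members that differed between basal-like and corneal-like cells had the smaller change in basal-like cells at the main clustering; in the finer clusters 7 members passed as smaller and IFI35 passed as larger. The differences were -3.44 for IFITM1, -3.32 for IFI44, -2.61 for ISG15, -2.28 for IFIT5, -2.19 for IFI6 and -1.81 for IRF7. They were -1.79 for IFIT2, -1.57 for IFIT3, -1.34 for IFI27, -1.09 for B2M, -0.97 for IRF9 and -0.67 for PSMB8.

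At day 3 conjunctival-like cells had a larger change than corneal-like cells for IFITM1 by 2.299 and ISG20 by 1.32. The differences were -2.11 for IFIT5, -2.07 for IFI6, -1.81 for IFIT2, -1.53 for IFIT3 and -1.49 for IRF7. They were -0.95 for ISG15, -0.75 for IRF9, -0.67 for B2M and -0.66 for ADAR.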

How the results depend on the processing

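Counts of members that moved by over 1.5 times depended on the setting as follows, and the cause was not tested. With DESeq2, 5 members were lower at day 1. With library totals alone, 15 were lower at day 1 and 4 at day 3 against uninjured, 5 at day 1 and 4 at day 3 in conjunctival-like cells, 4 at day 3 in corneal-like cells, and 2 in the day 1 interaction of conjunctival-like and corneal-like cells; TAP1 at day 3 reversed to -0.39. In the finer clusters (resolution 1) 3 members were higher at day 1 in basal-like cells, 2 lower at day 1 in conjunctival-like cells and 2 lower at day 3 in corneal-like cells. For basal-like against corneal-like cells there, 3 were higher at day 1, and 1 was higher and 7 lower at day 3. B2M and RSAD2 were added there to the members lower at day 1. Conjunctival-like cells formed no class at day 3 in the finer clusters. The summed share of 0.217%, 0.322% and 0.573% became 0.0953%, 0.185% and 0.339% without B2M, 0.0806%, 0.128% and 0.165% without B2M and IFI27, and 0.204%, 0.222% and 0.441% as a median over cells. It became 0.225%, 0.298% and 0.583% in thinned cells and 0.239%, 0.347% and 0.599% without mitochondrial counts, always in the order of the days.

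Leaving out each sample in turn gave 5 to 8 members lower at day 1 over all cells. In basal-like cells at day 1 it gave 3 to 5 higher, in conjunctival-like cells 0 to 1 lower at day 1 and 1 to 2 lower at day 3, and in corneal-like cells 4 to 7 higher and 4 to 10 lower at day 1. Same-numbered replicates did not deviate together over all genes tested (correlations 0.03, 0.05 and 0.02), and the main fit did not pair them. Low counts weaken such correlations, so a shared animal or batch is not excluded. With the replicate number as a block, 14 members were higher and 7 lower at day 1, 25 and 2 at day 3, where CMPK2 alone lost its calls. Of 72 results over all cells (24 members in 3 comparisons), 64 kept their call with DESeq2, 64 with library totals alone, and 72 without doublets, without barcodes under 500 counts and without a filter on low counts. These 24 were chosen mainly for their large log2 changes. Among the other tested members, calls changed with DESeq2 for CMPK2, EIF2AK2, ADAR and MX1. With library totals alone they changed for ADAR, EIF2AK2, STAT2, IRF1, MX1, SAMHD1 and BST2, and without doublets for CMPK2. The planned motif search was not run, since no promoter sequences were at hand.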
